A study of Vernicia fordii and Jatropha curcas with 4 samples.

Results

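Transcripts matched to the 6 Arabidopsis loci of tocopherol (vitamin E) synthesis were followed in developing seeds of 2 oil-bearing trees of the spurge family, the physic nut Jatropha curcas and the tung tree Vernicia fordii. The members were all assembled contigs whose deposited Arabidopsis locus code equalled AT1G06570 (HPPD), AT4G32770 (VTE1), AT2G18950 (VTE2), AT3G63410 (VTE3), AT1G64970 (VTE4) or AT5G04490 (VTE5). They numbered 17 of 94993 contigs, 10 of 45411 in Jatropha and 7 of 49582 in Vernicia, and every locus had at least 1 contig in each species. The study sequenced polyadenylated RNA in 4 libraries (2 for each species), mixing equal amounts of RNA from 3 seeds per library. The seeds came from trees aged 3 years, the Jatropha trees from a farmland. Each species gave 1 library from the early and 1 from the fast stage of oil accumulation. Jatropha seeds were taken 29 (early) and 37 (fast) days after pollination, and Vernicia seeds 90 (early) and 135 (fast) days after it. The source is labelled endosperm, the storage tissue around the embryo, and the tissue is labelled as seeds.

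The deposited columns are numbered 7 and 8, and no label used here ties a number to a stage. Libraries are referred to by these numbers, without a direction in time. With 1 library per stage there was no measure of the spread between seeds, so no test was possible and all differences are described by size. Levels are RPKM, reads corrected for contig length and library total, so levels of different loci can be ordered within a library. The tables of the species were normalized separately, so levels were not compared between species.

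Tocopherols are lipid-soluble antioxidants of plastid membranes and seed oils, where they protect unsaturated fatty acids from oxidation. In Arabidopsis, HPPD makes the aromatic head group, homogentisate, from 4-hydroxyphenylpyruvate, which comes from tyrosine. VTE5, a phytol kinase, returns phytol released from chlorophyll to the supply of the phytyl tail, and VTE2 joins head and tail. VTE3 then methylates the joined product, VTE1 closes the ring, and VTE4 adds the last methyl group that turns gamma-tocopherol into alpha-tocopherol. HPPD and VTE3 also serve the synthesis of plastoquinone, an electron carrier of photosynthesis.

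The RPKM values summed to between 676071 and 1104588 per library, and read totals are unknown. The highest contig held 25.1% of the sum in library 7 and 12.1% in library 8 of Jatropha, and 2.61% and 3.76% in Vernicia. Contigs at 0 RPKM numbered 4380 and 1884 in Jatropha and 948 and 2000 in Vernicia. A locus code accompanied 22599 Jatropha and 21611 Vernicia contigs, and contigs without a code were not searched for these enzymes. Of 5 Arabidopsis loci of seed storage globulins and oleosins listed as markers of storing seed tissue, 5 had contigs in Jatropha and 4 in Vernicia. Their summed level was 1459 RPKM in library 7 and 154881 RPKM in library 8 of Jatropha, and 411 and 75419 RPKM in Vernicia. Library 8 had the higher value, by at least 2-fold, at 4 of 4 in Vernicia and 3 of 5 in Jatropha. Of all loci, 7.7% in Vernicia and 7.15% in Jatropha were that much higher. The exceptions in Jatropha were AT4G28520, with 44.17 and 57.71 RPKM, and AT1G03880, with 17.96 and 11.51 RPKM. The summed level of the seed coat markers, with contigs for 2 and 3 of 3 listed loci, was 22.3 and 3.77 RPKM in Jatropha and 33.8 and 56.1 RPKM in Vernicia. The Vernicia sum followed AT1G61720 (27.86 and 53.75 RPKM), while the other two, AT5G48100 with 3.67 and 1.43 RPKM and AT3G59030 with 2.22 and 0.91 RPKM, were lower in library 8, and the list median was -0.75 on the log2 scale. That of the green tissue markers, with contigs for 2 of 3 loci in each species, was 29.3 and 115.2 RPKM in Jatropha and 74.8 and 198.1 RPKM in Vernicia. In Jatropha AT1G67090 carried that sum, with 23.74 and 109.97 RPKM, and AT2G39730 had 5.59 and 5.27 RPKM. No marker locus that had a contig was at 0 in any library. The part of these differences in the results on tocopherol synthesis was not tested, and in pooled seeds fewer cells of a type and less RNA per cell cannot be told apart.

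The largest differences lay at different steps in the 2 species. In Jatropha, HPPD was 6.26-fold lower and VTE1 6.74-fold higher in library 8 than in library 7. Their log2 differences of -2.59 and 2.55 moved to -1.80 and 3.35 after trimmed mean scaling, which sets the typical contig equal in both libraries. In Vernicia, VTE4 was 4.90-fold lower, VTE2 2.13-fold lower and VTE3 2.48-fold higher in library 8, while HPPD, VTE1 and VTE5 had log2 differences of 0.14, -0.05 and 0.03. The folds are ratios of summed RPKM, and the log2 differences are of summed RPKM + 1. The call at VTE2 in Vernicia was lost with several other settings, given with that locus.

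**Figure D1:**
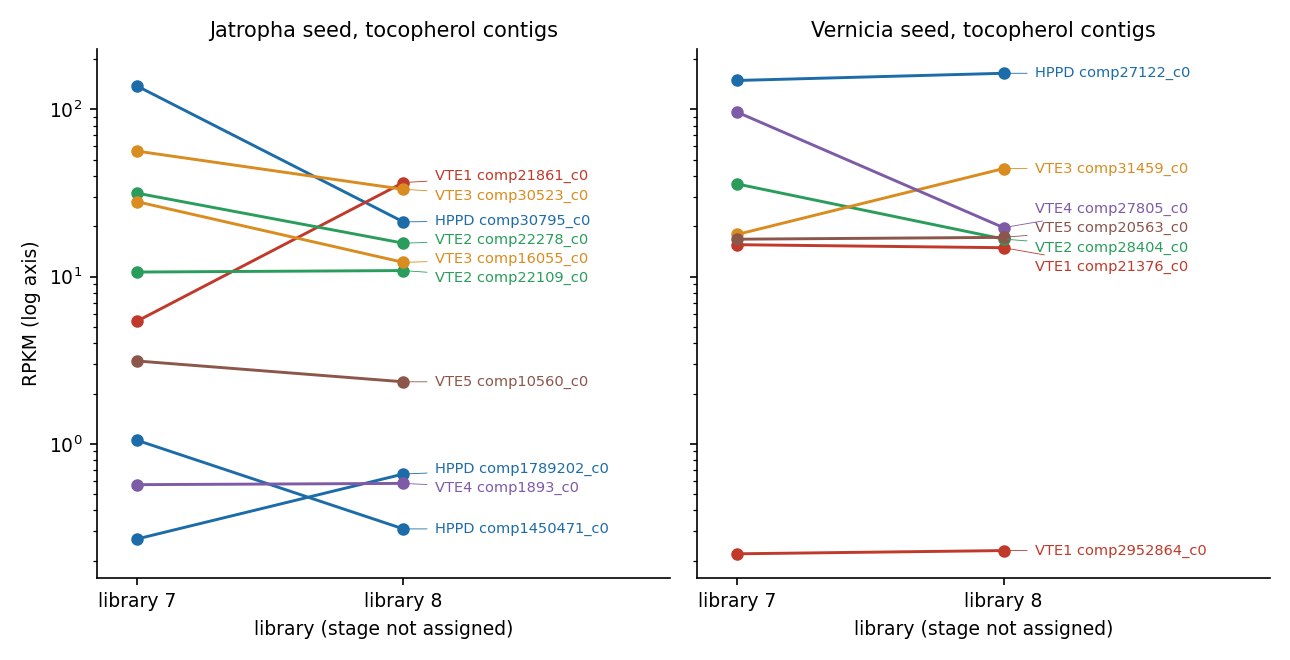
RPKM of each contig matched to a tocopherol locus (log axis) in library 7 and library 8 of each species, 1 line per contig, coloured by locus. In Jatropha the VTE1 contig is at 5.42 RPKM in library 7 and 36.52 in library 8, and the main HPPD contig at 137.83 and 21.25; in Vernicia the VTE3 and VTE4 lines cross, and the HPPD line is nearly level.

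HPPD supplies the head group and was the most abundant of the 6 loci in 3 of the 4 libraries. In Jatropha, 3 contigs carried its code, with 139.15 RPKM in sum in library 7 and 22.22 RPKM in library 8. Contig comp30795_c0 held 99.1% and 95.6% of these sums, with 137.83 and 21.25 RPKM. The other two, comp1450471_c0 with 1.05 and 0.31 RPKM and comp1789202_c0 with 0.27 and 0.66 RPKM, were too low to bear on the sum. HPPD thus stood at the 94.9th percentile of all Jatropha loci in library 7 and at the 82.5th in library 8. In Vernicia the single contig comp27122_c0 had 148.93 and 164.44 RPKM, at the 95.7th and 96.7th percentiles, so HPPD was among the more abundant transcripts in both libraries.

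VTE5, the phytol kinase, was the locus of the tail supply. Its Jatropha contig comp10560_c0 was low, at 3.13 RPKM in library 7 and 2.35 RPKM in library 8, the 16.7th and 27.0th percentiles of all loci. The Vernicia contig comp20563_c0 stood near the middle of all loci, at 16.74 and 17.17 RPKM, the 58.3rd and 67.4th percentiles.

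VTE2, the phytyltransferase that commits both precursors to tocopherol, had 2 contigs in Jatropha that differed from each other. Contig comp22278_c0 had 31.55 RPKM in library 7 and 15.85 RPKM in library 8, whereas comp22109_c0 had 10.65 and 10.87 RPKM. The share of comp22109_c0 in the locus was 25.2% in library 7 and 40.7% in library 8. Whether these contigs are copies of the gene or pieces of 1 transcript is not given in the table, and reads shared by near-identical copies would make their split uncertain. Their sum was 42.20 and 26.72 RPKM, a log2 difference of -0.64. In Vernicia the single contig comp28404_c0 had 35.80 and 16.77 RPKM, a log2 difference of -1.05, just past the 2-fold limit. That difference was -0.91 with a pseudocount of 5 RPKM and -0.68 after trimmed mean scaling, both inside the limit.

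VTE3, the methyltransferase shared with plastoquinone synthesis, differed between libraries in opposite directions in the 2 species as deposited. The Jatropha direction depended on the scaling, at -0.07 after trimmed mean scaling and 0.03 with equal totals without the top 100 contigs, against -0.88 as deposited. The Jatropha contigs both had lower values in library 8: comp30523_c0 had 56.28 and 33.27 RPKM, and comp16055_c0 had 28.05 and 12.17 RPKM. Their sum of 84.33 and 45.44 RPKM stood at the 91.6th and 91.2nd percentiles of all Jatropha loci, nearly the same rank in both libraries. The Vernicia contig comp31459_c0 had 17.88 RPKM in library 7 and 44.28 RPKM in library 8, the 60.2nd and 86.3rd percentiles.

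VTE1, the cyclase that gives tocopherol its ring, showed the largest change of rank. The single Jatropha contig comp21861_c0 had 5.42 RPKM in library 7 and 36.52 RPKM in library 8, the 26.8th and 89.0th percentiles of all loci. It was the only 1 of the 5 Jatropha loci at 1 RPKM or more that was higher in library 8 as deposited. In Vernicia contig comp21376_c0 held 98.6% and 98.5% of the locus, with 15.52 and 14.89 RPKM, and comp2952864_c0 had 0.22 and 0.23 RPKM. VTE1 of Vernicia stood at the 56.5th and 64.0th percentiles of all loci.

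VTE4, the final methyltransferase, was near the bottom of the Jatropha table and high in library 7 of Vernicia. The only Jatropha contig with its code, comp1893_c0, had 0.57 and 0.58 RPKM, at the 3.42nd and 8.90th percentiles of all loci, and did not reach the limit of 1 RPKM. At so low a level and with read totals unknown, no difference could be resolved. The Vernicia contig comp27805_c0 had 96.22 RPKM in library 7 and 19.63 RPKM in library 8, the 92.7th and 70.7th percentiles.

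Differences were next set beside those of all loci, as log2((library 8 + 1)/(library 7 + 1)) of the RPKM summed per locus, for loci with at least 1 RPKM in either library. Most loci were lower in library 8 as deposited: the median over 12931 Jatropha loci was -0.93 and that over 12896 Vernicia loci -0.48. Of the 6 tocopherol loci, 5 passed the limit in Jatropha, and 1 of them (VTE1) was at least 2-fold higher in library 8, against 7.15% of all loci. Likewise 1 (HPPD) was at least 2-fold lower, against 46.9% of all loci, so a difference of this kind was common in the table. All 6 loci passed in Vernicia, where 1 (VTE3) was at least 2-fold higher, against 7.7%, and 2 (VTE2 and VTE4) at least 2-fold lower, against 18.8%. The median of the loci that passed was -0.64 in Jatropha and -0.01 in Vernicia.

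Relative to the median locus, the Jatropha differences were 3.48 for VTE1, 0.63 for VTE5, 0.29 for VTE2, 0.05 for VTE3 and -1.66 for HPPD on the log2 scale. The difference of VTE1, 2.55 as deposited, was higher than that of 98.2% of the Jatropha loci, and that of HPPD, -2.59, was higher than 8.40% of them. VTE2 and VTE3 of Jatropha, at -0.64 and -0.88, lay close to the median locus, and VTE5, at -0.30, was higher than 72.8% of the loci. After trimmed mean scaling VTE2 and VTE5 turned to 0.16 and 0.32. In Vernicia the values relative to the median locus were 1.74 for VTE3, 0.62 for HPPD, 0.52 for VTE5, 0.43 for VTE1, -0.57 for VTE2 and -1.76 for VTE4. The Vernicia difference of VTE4, -2.24 as deposited, was higher than that of only 1.66% of all loci, and that of VTE3, 1.26, higher than 94.1%.

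**Figure D2:**
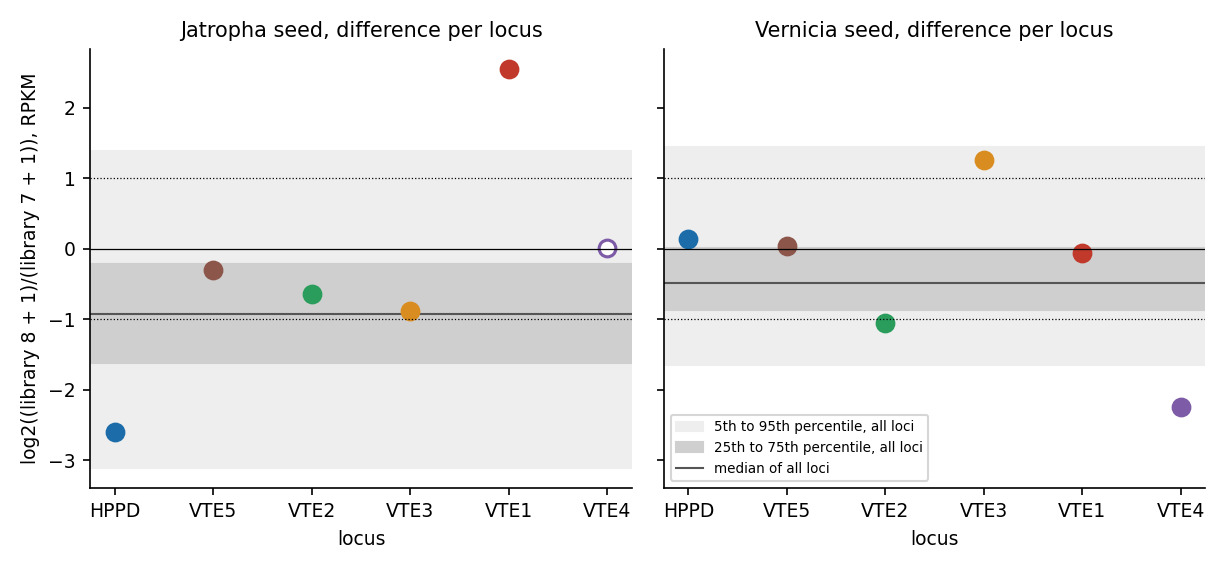
Difference between libraries for each tocopherol locus (points; y axis, log2 of library 8 + 1 over library 7 + 1 in RPKM; dotted lines at 2-fold) over the spread of all loci of the same table (grey bands and line). The open point is VTE4 of Jatropha, under 1 RPKM in both libraries; VTE1 of Jatropha at 2.55 lies above the 95th percentile of all loci (1.39) and VTE4 of Vernicia at -2.24 below the 5th (-1.64).

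The summed level of the 6 loci was 274.8 RPKM in library 7 and 133.8 RPKM in library 8 of Jatropha, a log2 difference of -1.03. This value rested on HPPD: without it the sums were 135.7 and 111.6 RPKM and the difference was -0.28. It also depended on the scaling, at -0.21 after trimmed mean scaling. In Vernicia the sums were 331.3 and 277.4 RPKM, a log2 difference of -0.26, which turned to 0.14 after trimmed mean scaling. Without VTE4 the deposited Vernicia sums were 235.1 and 257.8 RPKM and the difference turned to 0.13.

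Shares of each locus in the summed RPKM do not depend on how a library was scaled. HPPD held 50.6% of the sum in library 7 of Jatropha and 16.6% in library 8, while VTE1 held 1.97% and 27.3%. VTE3 held 30.7% and 34.0% and VTE2 15.4% and 20.0%, so their weight within the set changed little. VTE5 and VTE4 of Jatropha together stayed minor, at 1.14% and 1.76% for VTE5 and 0.207% and 0.433% for VTE4. In Vernicia HPPD held 45.0% in library 7 and 59.3% in library 8, VTE4 29.0% and 7.08%, and VTE3 5.40% and 16.0%. VTE2 of Vernicia held 10.8% and 6.05%, VTE1 4.75% and 5.45%, and VTE5 5.05% and 6.19%.

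**Figure D3:**
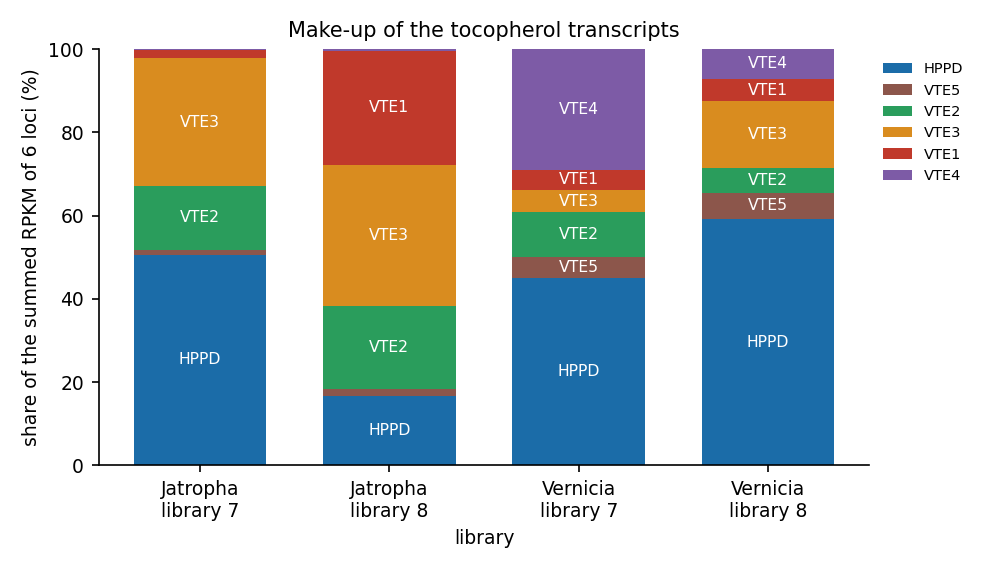
Share (%) of each locus in the summed RPKM of the 6 tocopherol loci, 1 stacked bar per library. HPPD is the largest block in all bars but Jatropha library 8, where VTE3 (34.0%) and VTE1 (27.3%) exceed it (16.6%).

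The order of levels followed from these values. In Jatropha library 7 it ran HPPD, VTE3, VTE2, VTE1, VTE5, VTE4, and in library 8 VTE3, VTE1, VTE2, HPPD, VTE5, VTE4. VTE5 and VTE4 were thus the lowest in both Jatropha libraries. When the highest contig stood for a locus, VTE1 (36.52 RPKM) passed VTE3 (33.27 RPKM) in library 8. In Vernicia the order was HPPD, VTE4, VTE2, VTE3, VTE5, VTE1 in library 7 and HPPD, VTE3, VTE4, VTE5, VTE2, VTE1 in library 8. The values of VTE1, VTE2, VTE4 and VTE5 in Vernicia library 8 lay between 15.12 and 19.63 RPKM, and without replicates neighbours this close cannot be ordered with any confidence.

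Ratios between successive steps were also taken within each library, where scaling cannot move them. The ratio of VTE2 to HPPD, joining enzyme to head group enzyme, was 0.303 in library 7 and 1.20 in library 8 of Jatropha, but 0.240 and 0.102 in Vernicia. VTE2 to VTE5 was 13.5 and 11.4 in Jatropha and 2.14 and 0.977 in Vernicia. The ratio of VTE3 to VTE2 was 1.998 and 1.70 in Jatropha, nearly level, and 0.499 and 2.64 in Vernicia. The cyclase to methyltransferase ratio, VTE1 to VTE3, was 0.0643 and 0.804 in Jatropha and 0.880 and 0.342 in Vernicia. VTE4 to VTE1, the last pair of steps, was 6.11 and 1.30 in Vernicia. In Jatropha it was 0.105 and 0.0159, and these values rest on a VTE4 contig under 1 RPKM. The sources used here do not say whether equal library numbers mean equal stages in the 2 trees.

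Neighbouring steps were described through 5 lists with 29 further Arabidopsis loci, written from general knowledge of the Arabidopsis pathways, since the tables pair contigs with codes and not with names. Of these, 26 had contigs in Jatropha and 25 in Vernicia, and all of them reached 1 RPKM in either library. In Jatropha 1 was at least 2-fold higher and 9 at least 2-fold lower in library 8, shares of the 26 to be read against 7.15% and 46.9% of all loci. In Vernicia 1 was higher and 4 lower, against 7.7% and 18.8%. The counts moved with the scaling, to 5 higher and 2 lower in Jatropha and to 4 higher and 2 lower in Vernicia after trimmed mean scaling, where 15% and 24.2% of all Jatropha loci and 11.1% and 9.48% of all Vernicia loci passed.

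The list of phytyl supply and chlorophyll turnover, which covers steps around the tail and not only its supply, held 8 loci with contigs in Jatropha. Of these, 5 were at least 2-fold lower in library 8, against 46.9% of all loci, and none higher, with a median log2 difference of -1.26 against -0.93 for all loci. After trimmed mean scaling 2 were lower and 1 higher, against 24.2% and 15% of all loci. Its most abundant locus, AT1G74470, had 89.29 and 33.08 RPKM, and its largest difference was that of AT1G19670, with 4.31 and 0.07 RPKM. AT1G19670 passed the limit of 1 RPKM through library 7 only. At so low a value in library 8 the size of its difference is uncertain. In Vernicia 2 of 7 loci were at least 2-fold lower and none higher, against 18.8% and 7.7% of all loci, with a median of -0.49 against -0.48. After that scaling 2 were lower and 1 higher, against 9.48% and 11.1%. There AT1G74470 had 119.53 and 169.68 RPKM, and the largest difference was that of AT5G13800, with 32.37 and 10.08 RPKM.

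The list of tyrosine and homogentisate metabolism, which feeds HPPD and removes its product, had 5 loci with contigs in each species. In Jatropha 2 were at least 2-fold lower and none higher, against 46.9% and 7.15% of all loci. The median was -0.88, close to the -0.93 of all loci. AT5G53970 was both the most abundant and the most different, with 66.75 RPKM in library 7 and 19.71 RPKM in library 8. In Vernicia the same locus had 12.51 and 37.60 RPKM and was the only 1 at least 2-fold higher, against 7.7% of all loci. There 1 locus, AT2G22250, with 9.16 and 3.89 RPKM, was at least 2-fold lower, against 18.8%. AT5G54080 was the most abundant of that list in Vernicia, at 57.77 and 58.97 RPKM, and the median was -0.24 against -0.48 for all loci. After trimmed mean scaling no locus of this list was at least 2-fold lower in either species, against 24.2% of all Jatropha and 9.48% of all Vernicia loci.

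The methylerythritol phosphate (MEP) pathway, the plastid route to isoprenoid precursors, had contigs for 7 of 7 loci in each species. Its median was -0.08 in Jatropha, against -0.93 for all loci, and -0.27 in Vernicia, against -0.48. In each species 1 locus of the list was at least 2-fold lower in library 8 and none higher. The shares of all Jatropha loci were 46.9% lower and 7.15% higher, and those of all Vernicia loci 18.8% lower and 7.7% higher. Trimmed mean scaling left none of the list lower and 1 higher in each species. Under it 24.2% of all Jatropha loci were lower and 15% higher. For all Vernicia loci these shares were 9.48% lower and 11.1% higher. In Jatropha AT5G62790 was the most abundant, at 35.52 and 17.61 RPKM, and AT2G02500 the most different, at 15.97 and 5.32 RPKM. In Vernicia AT4G34350 was both, at 69.89 and 29.59 RPKM.

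The plastoquinone branch competes for homogentisate, and 2 of its 3 listed loci had contigs in each species. AT3G11945 had 12.77 and 4.46 RPKM in Jatropha and 5.26 and 2.74 RPKM in Vernicia. In Jatropha it was at least 2-fold lower in library 8 as deposited, against 46.9% of all loci, but not after trimmed mean scaling. The plastoglobule list, for proteins of the plastid lipid droplets where tocopherol accumulates, had contigs for 4 of 4 loci. In Jatropha AT3G23400 was at least 2-fold higher in library 8, at 0.56 and 4.36 RPKM, against 7.15% of all loci. AT1G79600 was the most abundant, at 8.36 and 5.30 RPKM. AT3G23400 passed the limit of 1 RPKM through library 8 only, so the size of its difference is uncertain. Its call was lost with a pseudocount of 5 RPKM. In Vernicia AT3G23400, with 12.65 and 21.15 RPKM, was the most abundant and most different of that list. No Vernicia locus of either list reached 2-fold as deposited, against 7.7% higher and 18.8% lower among all loci. After trimmed mean scaling 1 Vernicia locus of the plastoglobule list was at least 2-fold higher, against 11.1% of all loci. The same scaling gave 1 higher of the plastoquinone list and 2 of the plastoglobule list in Jatropha, against 15%. The medians were -0.21 and 0.39 in Jatropha and -0.62 and -0.30 in Vernicia, for the plastoquinone and plastoglobule lists in that order. Those of all loci were -0.93 in Jatropha and -0.48 in Vernicia.

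**Figure D4:**
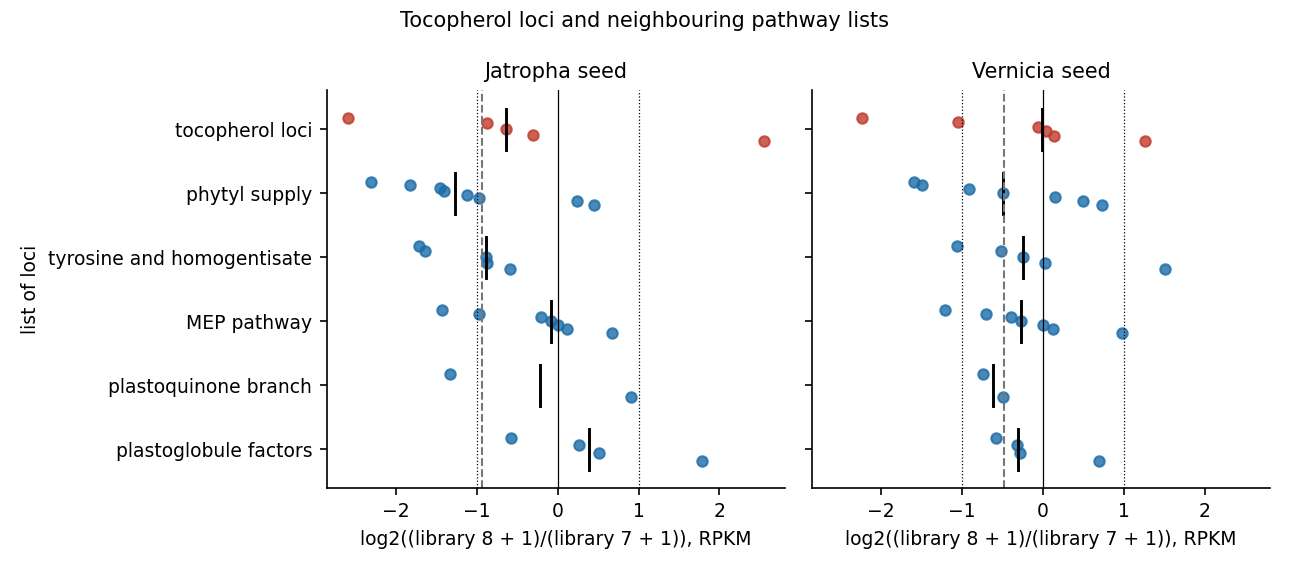
Difference between libraries (x axis, log2 of library 8 + 1 over library 7 + 1 in RPKM) of each locus at 1 RPKM or more in either library, by list; black bars mark list medians, the dashed line the median of all loci and dotted lines 2-fold. The tocopherol loci (red) span from -2.59 to 2.55 in Jatropha and from -2.24 to 1.26 in Vernicia, with points on both sides of 0.

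Among 11415 loci present in both tables, the 2 whose log2(RPKM + 1) values over the 4 libraries lay nearest to those of the summed tocopherol loci were AT3G55440 and AT2G46280. Their Euclidean distances were 0.43 and 0.44. AT3G55440 had 213.31 and 151.34 RPKM in Jatropha libraries 7 and 8 and 301.22 and 262.87 RPKM in Vernicia.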

How the data were processed

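Per the labels' protocols, directional libraries were made from fragmented polyadenylated RNA after CTAB extraction. For each species the authors deposited RPKM values of assembled contigs to 2 decimals, some with a TAIR10 locus code. The tables' names give the unit. The submitters' processing notes list Bowtie and edgeR but state no version or role for either. How contigs were assembled, annotated, counted and filtered is not stated in the sources used here.

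RPKM was summed over the contigs of each locus, which overstates the level where contigs are pieces of 1 transcript. Log2 differences used a pseudocount of 1 RPKM, which understates the change of low loci, a filter of 1 RPKM in either library and a 2-fold limit. Trimmed mean scaling divides library 8 by its typical ratio to library 7, the antilog of the mean log2 ratio over contigs at 1 RPKM or more in both libraries, with 30% trimmed at each end. Trimmed mean scaling and the 2-fold calls after it were tested on simulated data with 4-fold differences at the more abundant loci. There 200 loci per species were changed, equally many up and down, at an assumed read depth. The deposited differences were less balanced, with 46.9% of Jatropha loci at least 2-fold lower and 7.15% higher. How the scaling performs on such data was not tested. Calls as deposited and calls at low loci were not covered. Contig lengths and read totals are not given, so no counting interval could be computed.

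The members and lists were chosen with earlier results of these data known. Named by rule were the 6 loci with all their contigs, and per other pathway list the locus with the highest mean and the one with the largest difference. The 2 loci nearest to the summed set were also named by rule. AT2G22250 and the marker loci printed singly were named after their values were seen. Python 3.11.15, pandas 2.3.3, NumPy 2.4.6 and matplotlib 3.10.9 were used.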

Additional observations from a re-analysis of the deposited data

Results flagged for a closer look

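At 4 loci the difference between libraries, as log2((library 8 + 1)/(library 7 + 1)) of summed RPKM, had opposite signs in the 2 species. HPPD was -2.59 in Jatropha and 0.14 in Vernicia, VTE1 2.55 and -0.05, VTE3 -0.88 and 1.26, and VTE5 -0.30 and 0.03. The Vernicia values of HPPD, VTE1 and VTE5 lay near 0, so their signs carry little weight. How many of all loci had opposite signs was not computed, so the count cannot be read as particular to this set. The difference between species was not tested, since each value rests on 1 library per stage, and no label ties library numbers to stages. After trimmed mean scaling HPPD (-1.80 and 0.53) and VTE3 (-0.07 and 1.65) kept opposite signs, whereas VTE1 (3.35 and 0.32) and VTE5 (0.32 and 0.41) had the same sign. HPPD of Vernicia turned to -0.01 with equal totals over all contigs, and VTE3 of Jatropha to 0.03 with equal totals without the top 100 contigs.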

How the results depend on the processing

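The 2-fold calls of HPPD and VTE1 in Jatropha and of VTE3 and VTE4 in Vernicia held under both other pseudocounts, the 4 scalings and the highest contig of a locus, with ranges of -2.64 to -1.70, 1.99 to 3.45, 1.11 to 1.66 and -2.38 to -1.85. The number of Vernicia loci at least 2-fold lower, 2, became 1 with a pseudocount of 5 RPKM, with median-ratio scaling, with trimmed mean scaling and with equal totals without the top 100 contigs, where VTE2 was lost. At 4-fold it was 1, and the number higher was 0. The summed difference of Jatropha, -1.03, was -0.60 with equal totals, -0.21 with median-ratio and with trimmed mean scaling, -0.12 with equal totals without the top 100 contigs and -0.28 without HPPD. Of the other pathway loci in Jatropha, 1 higher and 9 lower as deposited, the higher numbered 2 with a pseudocount of 0.1 RPKM, 0 with 5 RPKM, 3 with equal totals, 5 with median-ratio and with trimmed mean scaling, 7 with equal totals without the top 100 contigs, 0 with a filter of 10 RPKM and 0 at 4-fold. The lower numbered 6 with equal totals, 4 with a pseudocount of 5 RPKM, 2 with either of these scalings or equal totals without the top 100 contigs, and 1 at 4-fold. In Vernicia, with 1 higher and 4 lower, the higher numbered 2 with a pseudocount of 0.1 RPKM, 4 with median-ratio and trimmed mean scaling, 2 with equal totals without the top 100 contigs and 0 at 4-fold. The lower numbered 2 with median-ratio and trimmed mean scaling and 0 at 4-fold. Another 78 counts and sums and 103 values of single loci moved by at most 1.5-fold and kept their call where they had one. A further 19 of single loci moved more or lost their call, and the cause was not tested. The tallies of unmoved values overstate stability, since some settings could not move a value. A filter leaves the difference of a locus as it is, and at a locus with 1 contig the highest contig equals the sum. No paired analysis was possible because every stage of a species is a single library. Removing the filter let VTE4 of Jatropha enter but could not change a number of loci past 2-fold. With a pseudocount of 1 RPKM, a locus under 1 RPKM in both libraries cannot reach 2-fold. This setting therefore says nothing on how stable the counts are, and it was not run for all loci. Read totals are unknown, so what depth limits could not be measured.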
